A study of Mus musculus with 10 samples.

Results

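MAF9 cells, C57BL/6 mouse bone marrow cells transduced with the leukemia fusion gene MLL-AF9, were grown for 4 days with the BET inhibitor iBET or with its solvent DMSO, and their RNA was sequenced. The comparison took 4 of the 10 libraries of the study, 2 labelled iBET and 2 labelled DMSO, chosen by their labels. The other 6 libraries came from the same kind of cells treated with MM-401 (which blocks the contact of MLL1 with WDR5), EPZ5676 (against the methyltransferase DOT1L) or MI-2-2 (against MENIN). All groups carried MLL-AF9 and grew with interleukin-3 at 10 ng/ml in serum-containing medium (15%). Each inhibitor was given at the dose that reduced growth by a set amount in these cells (labelled IC50), and neither the concentration nor the exact iBET compound is given in the sources used here. Duplicates were described as biological, with no statement of separate transductions or animals, so that p-values measure the spread between these libraries. For DMSO this spread includes a difference in sex-linked genes, given below. The authors counted reads on 24015 genes, of which 17450 had a read in at least 1 library and 12971 had enough reads to be tested.

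BET proteins, among them BRD2, BRD3 and the testis form BRDT, bind acetylated histones through their bromodomains. The family helps to bring the kinase complex P-TEFb to promoters and enhancers, which releases paused RNA polymerase II, and BET inhibitors occupy the bromodomain pocket so that the proteins leave chromatin. In MLL-rearranged leukemia these inhibitors are known for lowering MYC, for slowing growth and for raising HEXIM1, the inhibitor of P-TEFb.

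Levels are given as counts per 1000000 reads of the library, scaled by the trimmed mean of M-values (TMM CPM). They are not divided by gene length and are compared between libraries only. Library totals lay between 20394762 and 29473127 reads. The 2 DMSO libraries stood apart from each other. Over 2-fold differences within the pair were found in 15.8% of the 11391 tested genes with a mean of at least 1 TMM CPM there. Within the iBET pair the share was 1.603% of the genes that reached this level with iBET. DMSO replicate 2 held 3630 reads on 4 Y-linked genes, where the other 9 libraries held 0 to 2, and its level of Xist, the RNA of the inactive X chromosome, was 4.65 TMM CPM against 1026 to 2818 in those 9. The part of this difference in the results was not tested. Values without single libraries, or with the replicate number as a block, are given beside results that they moved most.

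The question was which genes differ between cells grown with iBET and with DMSO. In edgeR's quasi-likelihood test on all 10 libraries, 1806 of 12971 genes passed an adjusted p of 0.05 (Benjamini-Hochberg), and in each of them both iBET libraries lay above, or both lay below, the pair of DMSO libraries. Such genes are called below. Of them, 828 rose with iBET (6.38% of the genes tested) and 978 fell (7.54%). Changes over 2-fold were mostly falls, with 716 falls and 292 rises. Without regard to the test, both iBET libraries lay above both DMSO libraries in 27.7% of the genes tested and below both in 26.9%. The median log2 fold change of the tested genes was -0.04.

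The calls rested on the spread that the fit took from all 10 libraries. Fitted on the 4 libraries alone, edgeR called 0 genes (smallest adjusted p 0.0883, 2616 genes with an unadjusted p below 0.05), and DESeq2 on the same 4 libraries called 1313. With the replicate number as a block, edgeR called 3047 genes on the 10 libraries, 1500 rises and 1547 falls among the 12971 tested. Both exceed the 828 and 978 of the main fit, so counts of a list with the block are to be read against these larger totals. Of the 1806 called genes, 14.7% kept the call without iBET replicate 1 and 10.7% without iBET replicate 2, and 85.5% and 83.8% kept it without DMSO replicate 1 and 2. Leaving out a library of iBET or of DMSO left that group with 1 library, which is then assumed to vary as the other groups do. Without a DMSO library the difference between the controls was also taken out of the spread, so a call kept there does not cover that difference. A total of 154 genes kept the call in each of these 4 fits, and genes said below to keep the call throughout are among them.

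**Figure D1:**
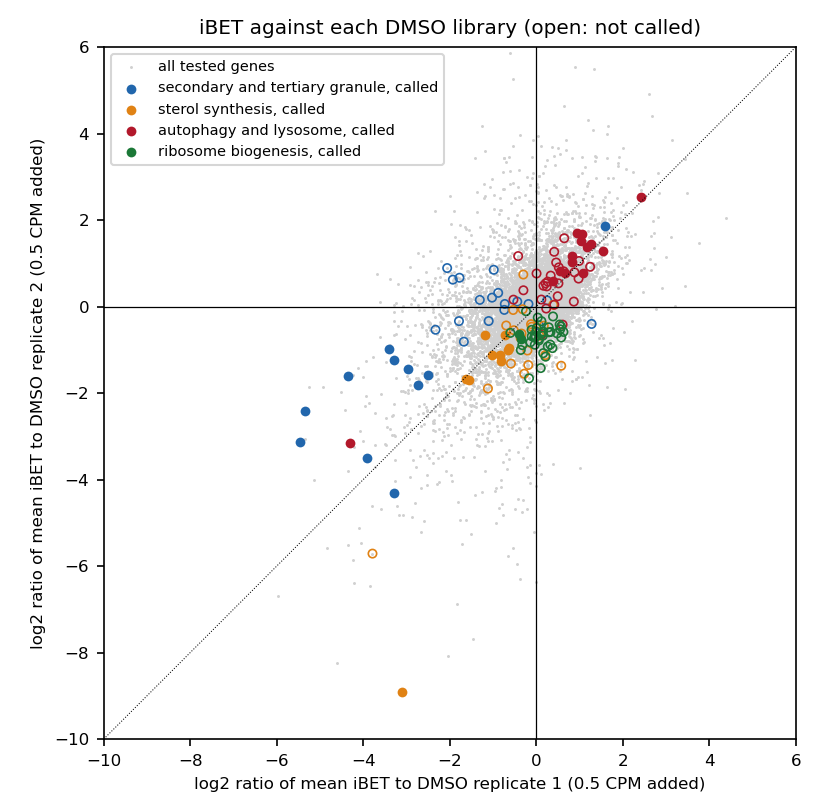
Each grey point is 1 of the 12971 tested genes, with the log2 ratio of mean iBET to DMSO replicate 1 on the x axis and to DMSO replicate 2 on the y axis (0.5 CPM added). Members of 4 lists are coloured, filled where called. Called autophagy and lysosome genes lie in the upper right apart from 1 gene, called sterol synthesis and granule genes in the lower left apart from 1 granule gene, and ribosome biogenesis genes lie mostly below the horizontal line but around 0 on the x axis.

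The direct targets of the drug were described first, with 19 genes for BET proteins, P-TEFb and their partners, all of them tested. Brd2 was at 317 and 422 TMM CPM with DMSO and 574 and 557 with iBET, so that both iBET libraries lay above both controls, and it rose (log2 fold change 0.61, SE 0.15, adjusted p = 0.0358, edgeR). Brd3 was at 119 and 107 TMM CPM with DMSO and 123 and 116 with iBET (log2 fold change 0.08). It did not pass the test, nor did the kinase Cdk9 (0.25) or its cyclins Ccnt1 (0.16) and Ccnt2 (0.01). Hexim1 was at 73.6 and 147 TMM CPM with DMSO and 212 and 204 with iBET. Its iBET libraries were above both controls, but the controls were far apart and the change missed the threshold (log2 fold change 0.92, SE 0.27, adjusted p = 0.0618, edgeR). With the replicate block its adjusted p was 0.0445. Fitted against 1 control library it passed, with a log2 fold change of 0.505 (adjusted p 0.0286) without DMSO replicate 1 and of 1.497 (adjusted p 0.00135) without DMSO replicate 2, and it did not pass without either iBET library (adjusted p 0.215 and 0.194, edgeR). Its relative Hexim2, which also binds P-TEFb, went the opposite way, from 7.24 and 5.56 TMM CPM to 1.99 and 1.45, and fell (log2 fold change -1.895, SE 0.35, adjusted p = 0.0147, edgeR). Of the 19 genes 1 rose and 1 fell (5.26% each, against 6.38% and 7.54%), and 3 rose and 3 fell with the replicate block. Neither Brd2 nor Hexim2 kept its call without an iBET library (largest adjusted p 0.167).

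A list of 16 genes often used as markers of BET inhibition in blood cells held 3 rises (18.8%, against 6.38% of the genes tested) and no fall, and 5 rises and 3 falls (Myc, Il7r and Cd180) with the replicate block. Fosl1 passed the blocked test as well (adjusted p 0.0253, edgeR), but its iBET values overlapped the controls. The linker histone gene Hist1h1c was at 18.03 and 18.03 TMM CPM with DMSO and 68.7 and 43.6 with iBET and rose (log2 fold change 1.64, SE 0.26, adjusted p = 0.00906, edgeR). Hist1h2bc, a histone H2B gene, was at 13.01 and 3.79 TMM CPM with DMSO and 31.5 and 29.7 with iBET and rose by 1.86 on the log2 scale, or 3.01 without DMSO replicate 1 and 1.23 without DMSO replicate 2. Serpini1, a serine protease inhibitor, was called at a level under 1 TMM CPM, with 0.156 and 0.0479 with DMSO and 0.796 and 0.459 with iBET. It lost the call without DMSO replicate 2 (adjusted p 0.0759, edgeR). Among the members that are usually lowered, Ccr2, a chemokine receptor of monocytes, was at 93.9 and 90.99 TMM CPM with DMSO and 65.3 and 76.99 with iBET, Cd180, a Toll-like receptor partner, at 3.15 and 6.95 TMM CPM with DMSO and 1.72 and 2.22 with iBET, and Il7r at 0.234 and 1.01 TMM CPM with DMSO and 0 and 0.0765 with iBET. In each the iBET libraries were below both controls, and none passed the test (adjusted p 0.102, 0.132 and 0.0568, edgeR). With the block the adjusted p of Cd180 was 0.0499 and that of Il7r 0.0213, and both also passed without DMSO replicate 1 (0.0462 and 0.0132) but not without DMSO replicate 2 (0.408 and 0.178, edgeR). The cell cycle kinase Cdk6 was at 319 and 174 TMM CPM with DMSO and 393 and 346 with iBET and the survival gene Bcl2 at 11.6 and 9.44 TMM CPM with DMSO and 22.8 and 17.3 with iBET. Both were higher in the iBET libraries than in either control without passing the test (adjusted p 0.141 and 0.0920, edgeR). The log2 fold change of Cdk6 was 0.58, or 1.09 without DMSO replicate 1 and 0.21 without DMSO replicate 2. Without iBET replicate 1, iBET replicate 2, DMSO replicate 1 and DMSO replicate 2, 0, 1, 3 and 2 of the 3 calls were kept.

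Myc, the gene of the transcription factor that drives growth and ribosome production, was at 456 and 403 TMM CPM with DMSO and 314 and 257 with iBET. The iBET libraries lay below both controls, and the log2 fold change of -0.59 (SE 0.27) had an adjusted p of 0.179 in edgeR and of 0.0327 with the replicate block. Myb, which keeps progenitors immature, was at 687 and 953 TMM CPM with DMSO and 561 and 605 with iBET, also below both controls. It did not pass the test (log2 fold change -0.49, SE 0.17, adjusted p = 0.0850, edgeR). Its log2 fold change was -0.71 without DMSO replicate 1 and -0.24 without DMSO replicate 2. Of 12 tested genes of the MYC, MAX and MYB list (14 listed), 1 rose and 1 fell (8.33% each, against 6.38% and 7.54%). The block gave 1 rise and 2 falls. Mxd3, a partner of MAX that opposes MYC, was at 6.11 and 8.102 TMM CPM with DMSO and 14.2 and 14.6 with iBET and rose (1.02, SE 0.19, adjusted p = 0.0136, edgeR). Mlx, another partner in this network, was at 98.1 and 90.9 TMM CPM with DMSO and 71.1 and 74.9 with iBET and fell (-0.37, SE 0.10, adjusted p = 0.0477, edgeR). The partner Max was at 69.3 and 106 TMM CPM with DMSO and 82.03 and 92.6 with iBET, the control values enclosing both iBET values. Without the same libraries in turn, 0, 0, 1 and 2 of the 2 calls were kept.

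Genes for making ribosomes, many of them known MYC targets, depended on the control library. Of 39 tested genes, none rose and 2 fell (5.13%, against 7.54%), and the list's median was -0.40 on the log2 scale. Without DMSO replicate 1 the median was -0.68, and without DMSO replicate 2 it was 0.10, with the opposite sign. The summed level of the list was 5743 TMM CPM in DMSO replicate 1 and 11548 in replicate 2, and 5703 and 6609 in the iBET libraries. The 2 that fell were Ebna1bp2, at 156 and 184 TMM CPM with DMSO and 120.3 and 116 with iBET, and Nop16, at 79.2 and 103 TMM CPM with DMSO and 55.9 and 67.1 with iBET. Nop16 lost its call without DMSO replicate 2 (log2 fold change -0.37, adjusted p 0.0708, edgeR), and both lost it without either iBET library. With the replicate block 6 genes fell.

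**Figure D2:**
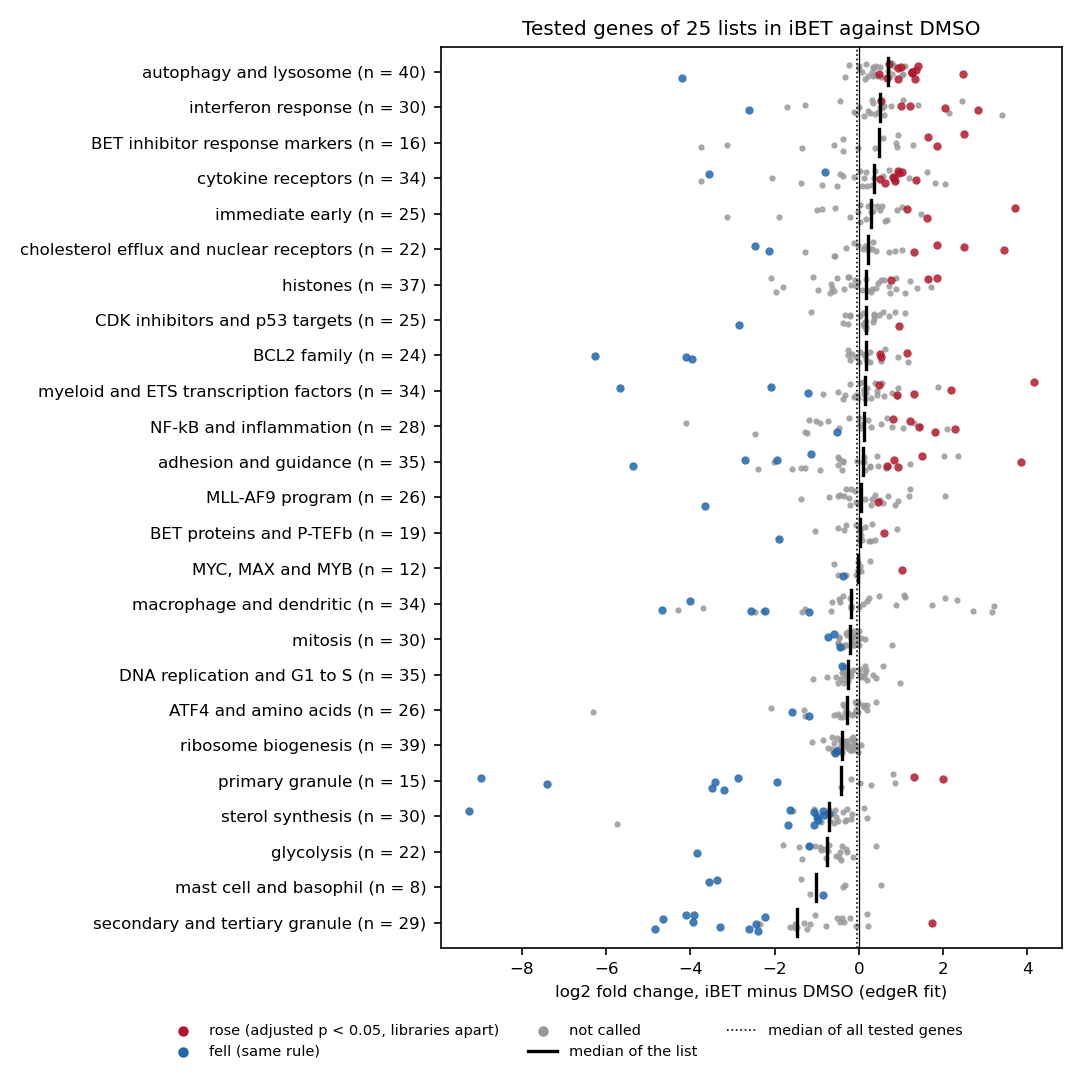
Points are the log2 fold changes (iBET minus DMSO, x axis) of the tested members of 25 gene lists, 1 row per list ordered by its median (bar), red where a gene rose, blue where it fell and grey where it was not called. The autophagy and lysosome list lies at the top with a median of 0.69, and the secondary and tertiary granule list at the bottom with a median of -1.47.

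The program that MLL-AF9 maintains, homeobox genes and their partners, held few calls. Hoxa9, which holds myeloid progenitors in self-renewal, was at 445 and 379.6 TMM CPM with DMSO and 519 and 506 with iBET, and its partner Meis1 at 36.4 and 89.9 TMM CPM with DMSO and 50.96 and 56.7 with iBET. Hoxa9 was above both controls (log2 fold change 0.31, adjusted p 0.128, edgeR), and the Meis1 values of iBET lay between those of the controls (-0.23). The transcription factors of myeloid progenitors Spi1, at 195 and 251 TMM CPM with DMSO and 209.8 and 231 with iBET, and Cebpa, at 127 and 152 TMM CPM with DMSO and 162 and 126 with iBET, were present in each library, whereas Cd34, a surface marker of early progenitors, was at 0.935 and 1.87 and 1.41 and 1.65 TMM CPM. Of 26 tested genes of the list (30 listed), 1 rose and 1 fell (3.85% each, against 6.38% and 7.54%). The block gave 4 rises and 1 fall. In 11 (42.3%, against 27.7%) both iBET libraries lay above both controls, and in 4 (15.4%, against 26.9%) below both. Jmjd1c, a demethylase family gene, was at 212 and 231 TMM CPM with DMSO and 298 and 314 with iBET and rose (0.47, SE 0.12, adjusted p = 0.0414, edgeR). Igf2bp2, which binds RNA, was at 1.01 and 1.68 TMM CPM with DMSO and 0.0884 and 0.115 with iBET and fell (-3.64, SE 0.48, adjusted p = 0.00523, edgeR), at a low level throughout. Without either iBET library neither was called (largest adjusted p 0.194).

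Lineage transcription factors changed in both directions. Of 34 tested genes (38 listed), 5 rose (14.7%, against 6.38%) and 3 fell (8.82%, against 7.54%), and 8 rose and 4 fell with the replicate block. Irf8, the factor that directs progenitors to monocytes and dendritic cells, was at 21.1 and 61.3 TMM CPM with DMSO and 132 and 242 with iBET. It rose by 2.18, SE 0.48, adjusted p = 0.0247 (edgeR). Irf5, an activator of inflammatory genes, was at 9.93 and 13.5 TMM CPM with DMSO and 24.9 and 33.6 with iBET and rose by 1.32, and the ETS factor Etv3 was at 28.3 and 24.9 TMM CPM with DMSO and 55.95 and 43.8 with iBET and rose by 0.91. Elf4, another ETS factor, was at 172 and 185 TMM CPM with DMSO and 261 and 238 with iBET and rose by 0.48 on the same log2 scale.

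Cebpe, the C/EBP factor needed for the late stages of the granulocyte, fell from 107 and 108 TMM CPM to 31.3 and 19.5 (log2 fold change -2.08, SE 0.25, adjusted p = 0.00437, edgeR). Erg, an ETS factor of stem and progenitor cells, went from 7.75 and 5.27 to 0.133 and 0.115 TMM CPM (-5.67, SE 0.33, adjusted p = 0.000334, edgeR). Both kept their calls throughout. Ets1 was at 85.3 and 162 TMM CPM with DMSO and 59.8 and 48.4 with iBET and fell by 1.19 on the log2 scale. Of the 8 calls of this list, 2 were kept without iBET replicate 1 and 3 without iBET replicate 2, and the 8 without either DMSO library.

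Primary granules are the first granules of the promyelocyte and hold its serine proteases and peroxidase. Of 15 tested genes (16 listed), 7 fell (46.7%, against 7.54%) and 2 rose (13.3%, against 6.38%), with a median of -0.43. Elane, neutrophil elastase, was at 4195 and 4009 TMM CPM with DMSO and 747 and 376 with iBET, and the iBET values lay far below controls that were close to each other (log2 fold change -2.87, SE 0.36, adjusted p = 0.00477, edgeR). Cst7, a protease inhibitor of granules, was at 97.5 and 79.6 TMM CPM with DMSO and 7.87 and 8.65 with iBET (-3.42, SE 0.15, adjusted p = 0.000217, edgeR), and the protease Prss57 at 91.6 and 62.7 TMM CPM with DMSO and 9.06 and 7.65 with iBET (-3.21, SE 0.24, adjusted p = 0.00107, edgeR). These 3 genes kept their calls throughout. Mpo, myeloperoxidase, was at 386 and 4817 TMM CPM with DMSO and 14.6 and 16.1 with iBET. Both controls were far above the iBET libraries but also far from each other, and the log2 fold change of -7.403 became -4.65 without DMSO replicate 2. It lost the call without either iBET library (adjusted p 0.0977 and 0.0988, edgeR).

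Hp, haptoglobin, was at 142 and 500.3 TMM CPM with DMSO and 29.3 and 27.97 with iBET and fell by 3.49, or 2.31 without DMSO replicate 2. Srgn, the proteoglycan that packs granules, was at 1318 and 2190.4 TMM CPM with DMSO and 429 and 477 with iBET and fell by 1.95. Nkg7, also a gene of cytotoxic lymphocytes, had 1410 reads with DMSO and 3 with iBET, and its controls were at 1.52 and 65.7 TMM CPM. The genes of the list that rose do not mark the promyelocyte alone. Lyz2, lysozyme, which macrophages make in large amounts, was at 282 and 261 TMM CPM with DMSO and 1022 and 1147 with iBET and rose (1.998, SE 0.25, adjusted p = 0.00500, edgeR), and kept the call throughout. Ctsc, a lysosomal protease that activates the granule proteases, was at 63.2 and 80.8 TMM CPM with DMSO and 196 and 163 with iBET and rose by 1.32. In all, 4, 4, 8 and 9 of the 9 calls were kept without iBET replicate 1, iBET replicate 2, DMSO replicate 1 and DMSO replicate 2.

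Secondary and tertiary granule proteins appear later, from the myelocyte on. Of 29 tested genes (30 listed), 10 fell (34.5%, against 7.54%) and 1 rose (3.45%, against 6.38%), and the median log2 fold change was -1.47. Without DMSO replicate 1 the median was -0.36 and without DMSO replicate 2 it was -2.06. Camp, the cathelicidin precursor, was at 52.7 and 39.3 TMM CPM with DMSO and 2.96 and 3.099 with iBET, and the controls were close (-3.92, SE 0.27, adjusted p = 0.000818, edgeR). Olfm4, olfactomedin of specific granules, was at 35.2 and 71.9 TMM CPM with DMSO and 3.45 and 2.79 with iBET (-4.100, SE 0.40, adjusted p = 0.00229, edgeR). These were the 2 members that kept the call throughout. Ltb4r1, the leukotriene receptor of neutrophils, was at 60.98 and 32.1 TMM CPM with DMSO and 10.4 and 7.19 with iBET. The stefin genes Stfa1, at 224 and 28.96 TMM CPM with DMSO and 6.67 and 3.44 with iBET, Stfa2, at 42.5 and 5.94 TMM CPM with DMSO and 1.99 and 1.22 with iBET, and BC100530, at 306 and 59.8 TMM CPM with DMSO and 8.18 and 4.63 with iBET, are near-identical copies whose reads cannot be assigned with certainty, and DMSO replicate 1 was several times above replicate 2. Without DMSO replicate 1 the log2 fold changes of Stfa1 and Stfa2 were -2.53 and -1.90 in place of -4.65 and -3.93. The rise was that of Anxa1, annexin A1, at 21.2 and 17.5 TMM CPM with DMSO and 60.6 and 69.8 with iBET. In turn without iBET replicate 1, iBET replicate 2, DMSO replicate 1 and DMSO replicate 2, 3, 2, 9 and 11 of the 11 calls were kept.

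Macrophage and dendritic cell genes held 5 falls and no rise among 34 tested (38 listed), 14.7% against 7.54%, with a median of -0.19 that was -0.02 without DMSO replicate 2. Both iBET libraries lay above both controls in 8 of the 34 (23.5%, against 27.7%) and below both in 11 (32.4%, against 26.9%). With the replicate block 1 rose and 6 fell. Fcgr4, an activating Fc receptor, was at 22.9 and 22.7 TMM CPM with DMSO and 5.04 and 4.63 with iBET and fell (-2.24, SE 0.22, adjusted p = 0.00211, edgeR), the 1 call of the list that was kept throughout. Cd14, the co-receptor for endotoxin, was at 19.04 and 13.4 TMM CPM with DMSO and 8.35 and 5.93 with iBET, F13a1, a coagulation factor of monocytes, at 453 and 218 TMM CPM with DMSO and 49.9 and 64.4 with iBET, and the lectin receptor Clec4a2 at 6.74 and 18.2 TMM CPM with DMSO and 0.751 and 0.765 with iBET. Axl, a receptor for dying cells, fell from 0.7399 and 3.74 to 0.0442 and 0.115 TMM CPM, by 4.68 on the log2 scale, or 3.10 without DMSO replicate 2. In each of these genes the iBET libraries were below both controls. Clec12a, a lectin receptor of myeloid cells outside the list, had the largest fall of all by the ranking used here, from 179 and 297 to 2.39 and 2.37 TMM CPM (-6.64, SE 0.35, adjusted p = 0.000334, edgeR). In bulk RNA, fewer cells of a type and less RNA per cell cannot be told apart.

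Of the 25 lists, the largest share of rises was in that of lysosomes and autophagy, the compartment that digests cell contents and the pathway that delivers them. Of 40 tested genes (40 listed), 13 rose (32.5%, against 6.38%) and 1 fell (2.5%, against 7.54%). In 30 of the 40 (75.0%, against 27.7%) both iBET libraries lay above both DMSO libraries. The median was 0.69 on the log2 scale, and 0.77 and 0.53 without DMSO replicate 1 and 2. With the replicate block 23 genes rose. The summed level of the 40 genes was 8165 and 7570.2 TMM CPM with DMSO and 13782 and 15816 with iBET.

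Lamp1, the main glycoprotein of the lysosome membrane, was at 891 and 778 TMM CPM with DMSO and 1881 and 2142 with iBET (1.27, SE 0.21, adjusted p = 0.00980, edgeR). Psap, the precursor of the saposins, was at 602 and 719 TMM CPM with DMSO and 1416 and 2066 with iBET, Hexa, a subunit of hexosaminidase, at 465 and 301 TMM CPM with DMSO and 877 and 1044 with iBET, and the protease gene Ctsl at 61.2 and 53.3 TMM CPM with DMSO and 142 and 152 with iBET. In each the lowest iBET library was above the highest control. Map1lc3b, the LC3 protein of autophagosomes, was at 54.9 and 43.003 TMM CPM with DMSO and 99.97 and 95.01 with iBET, and Sqstm1, the cargo receptor p62, at 211 and 175 TMM CPM with DMSO and 304 and 312 with iBET. Tfe3, a factor that activates lysosome genes, was at 31.9 and 39.8 TMM CPM with DMSO and 63.9 and 72.3 with iBET and rose by 0.93, and its relative Tfeb was at 12.3 and 15.01 TMM CPM with DMSO and 11.01 and 18.02 with iBET and did not pass the test (0.09, adjusted p 0.826, edgeR). The gene that fell was Atg9b, a membrane protein of autophagy, at 42.4 and 18.7 TMM CPM with DMSO and 1.94 and 1.38 with iBET (-4.21, SE 0.64, adjusted p = 0.00805, edgeR). Of these 14 calls, 5 were kept without iBET replicate 1, 2 without iBET replicate 2, 13 without DMSO replicate 1 and 11 without DMSO replicate 2. Map1lc3b was kept in each.

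TFEB and TFE3 are known to bind a short palindromic element upstream of lysosome genes. The letters TCACGTG were searched on both strands of the 250 bases before each RefSeq transcription start (table of build GRCm38.p6, 31 of 40 genes matched by symbol). They were found in 7 of 38 promoters of the list (18.4%) and in 1028 of 32851 promoters of all genes (3.13%). A match describes the sequence and not a bound site. Of the 7 genes with a match 2 were called, Lamp1 and Mcoln1, the calcium channel of the lysosome, and both rose. In the whole list 14 of 40 tested genes were called. Mcoln1 was at 39.4 and 34.4 TMM CPM with DMSO and 71.7 and 68.99 with iBET and rose by 0.93 on the log2 scale. The last 120 bases before the start are shown for both, on the plus strand, chr8:13159041-13159160 for Lamp1 and chr8:3500399-3500518 for Mcoln1, with matches to the letters or their reverse complement in capitals.
Lamp1: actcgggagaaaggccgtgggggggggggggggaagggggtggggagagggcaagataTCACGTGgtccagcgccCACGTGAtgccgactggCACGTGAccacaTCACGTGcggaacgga
Mcoln1: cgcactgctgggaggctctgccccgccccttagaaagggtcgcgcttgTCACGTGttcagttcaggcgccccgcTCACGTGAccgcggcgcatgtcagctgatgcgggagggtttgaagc

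In sterol synthesis, the pathway from acetyl-CoA to cholesterol under control of SREBP2, all called changes were falls. Of 30 tested genes (31 listed), 10 fell (33.3%, against 7.54%) and none rose. In 20 of them (66.7%, against 26.9%) both iBET libraries were below both DMSO libraries, and the median was -0.70. Fdps, farnesyl diphosphate synthase, was at 109 and 120.4 TMM CPM with DMSO and 40.8 and 32.98 with iBET (-1.64, SE 0.18, adjusted p = 0.00313, edgeR). The controls were close and the call was kept throughout. Pmvk, phosphomevalonate kinase, was at 62.3 and 65.01 TMM CPM with DMSO and 20.2 and 19.7 with iBET, Stard4, a cholesterol carrier, at 164 and 174 TMM CPM with DMSO and 88.9 and 71.8 with iBET, Nsdhl, a late enzyme of the pathway, at 52.7 and 64.6 TMM CPM with DMSO and 30.7 and 27.9 with iBET, and Dhcr7, which makes cholesterol from its last precursor, at 101 and 137 TMM CPM with DMSO and 60.4 and 53.99 with iBET. In these 4 genes the iBET levels were between 0.314 and 0.4996 times those of DMSO. The regulator Srebf2, at 453 and 331 TMM CPM with DMSO and 341 and 285 with iBET, did not pass the test (adjusted p 0.367, edgeR). Of these 10 calls, 2 were kept without iBET replicate 1, 1 without iBET replicate 2, 8 without DMSO replicate 1 and 10 without DMSO replicate 2 (largest adjusted p 0.202). The SREBP element was also searched, as TCACNCCA on both strands. It was found in 2 of 25 promoters of the list (8%), neither of a called gene, and in 1207 of 32851 of all promoters (3.67%).

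Nuclear receptors and cholesterol efflux genes changed in both directions, with 4 rises (18.2%, against 6.38%) and 2 falls (9.09%, against 7.54%) among 22 tested (24 listed). The vitamin D receptor Vdr was at 10.4 and 3.55 TMM CPM with DMSO and 44.2 and 35.4 with iBET (2.51, SE 0.46, adjusted p = 0.0145, edgeR) and the retinoic acid receptor Rara at 32.1 and 20.6 TMM CPM with DMSO and 96.3 and 94.1 with iBET (1.85, SE 0.28, adjusted p = 0.00792, edgeR). Ligands of both are known to drive myeloid cells to mature. Ppargc1a, the coactivator of mitochondrial genes, was at 0.623 and 0.336 TMM CPM with DMSO and 5.52 and 5.17 with iBET, and Abcg1, which exports cholesterol, at 24.5 and 18.1 TMM CPM with DMSO and 62.1 and 44.5 with iBET. Pparg, the receptor of fatty acid storage, was at 10.3 and 10.7 TMM CPM with DMSO and 2.17 and 2.64 with iBET and fell (-2.12, SE 0.24, adjusted p = 0.00334, edgeR), the 1 call of the list that was kept throughout. Cyp27a1, which makes an oxysterol, was at 7.55 and 20.8 TMM CPM with DMSO and 2.92 and 2.22 with iBET and fell by 2.46, or 1.56 without DMSO replicate 2. Of these 6 calls, 1 was kept without iBET replicate 1, 1 without iBET replicate 2 and the 6 without either DMSO library.

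Most interferon response genes were not called. Of 30 tested (35 listed), 5 rose (16.7%, against 6.38%) and 1 fell (3.33%, against 7.54%), and in 13 (43.3%, against 27.7%) both iBET libraries were above both controls. The median was 0.51, and 1.10 and 0.10 without DMSO replicate 1 and 2. Irf7, the main amplifier of type I interferon, was at 2.34 and 0.815 TMM CPM with DMSO and 12.1 and 10.9 with iBET (2.84, SE 0.58, adjusted p = 0.0197, edgeR). Trim30a was at 20.6 and 12.8 TMM CPM with DMSO and 67.4 and 70.3 with iBET (2.04, SE 0.22, adjusted p = 0.00299, edgeR) and kept the call throughout. It has a close copy, Trim30d, which was at 1.32 and 0.863 TMM CPM with DMSO and 10.1 and 9.299 with iBET, and reads between them may be shared. Parp14 was at 11.8 and 10.5 TMM CPM with DMSO and 24.2 and 27.6 with iBET and the GTPase gene Irgm1 at 17.5 and 18.98 TMM CPM with DMSO and 35.7 and 37.04 with iBET. Ifit2, an antiviral gene, went the other way, from 6.85 and 8.92 to 1.02 and 1.53 TMM CPM (-2.62, SE 0.33, adjusted p = 0.00475, edgeR), and kept the call throughout. Slfn5, an interferon-inducible gene outside the list, was at 1.48 and 3.12 TMM CPM with DMSO and 20.3 and 23.3 with iBET. Of these 6 calls, 3 were kept without iBET replicate 1, 2 without iBET replicate 2, 6 without DMSO replicate 1 and 6 without DMSO replicate 2.

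Interferon regulatory factors are known to read paired GAAA letters. The letters GAAA, any 2 bases and GAAA again, on either strand, were found in 13 of 31 promoters of the list (41.9%, 24 of 30 genes matched) and in 2.98% of all promoters. Of the 13 genes with these letters 2 were called, Trim30a and Irgm1, and both rose. In the whole list 6 of 30 tested genes were called. The last 120 bases before their starts are shown in the direction of the gene, which is the minus strand for both, at chr7:104465194-104465313 for Trim30a and chr11:48871421-48871540 for Irgm1 (RefSeq, GRCm38.p6), with the matches in capitals.
Trim30a: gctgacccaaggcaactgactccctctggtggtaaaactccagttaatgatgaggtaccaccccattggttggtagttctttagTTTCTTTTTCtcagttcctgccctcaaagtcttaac
Irgm1: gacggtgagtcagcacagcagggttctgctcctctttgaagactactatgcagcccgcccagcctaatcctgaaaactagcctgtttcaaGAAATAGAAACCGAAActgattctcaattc

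Of 28 tested NF-kB and inflammation genes (36 listed), 5 rose (17.9%, against 6.38%) and 1 fell (3.57%, against 7.54%). With the replicate block 7 rose and 4 fell. None of the called genes kept its call without DMSO replicate 2 or without either iBET library. Cish, induced by STAT5, was at 124 and 58.9 TMM CPM with DMSO and 256 and 239 with iBET (adjusted p 0.0403, and 0.0641 without DMSO replicate 2, edgeR). Socs3, a feedback inhibitor of cytokine signals, was at 9.31 and 4.36 TMM CPM with DMSO and 24.8 and 23.5 with iBET, Tnf at 14.4 and 11.3 TMM CPM with DMSO and 37.6 and 21.9 with iBET, the inhibitor gene Nfkbia at 52.1 and 34.4 TMM CPM with DMSO and 82.4 and 70.5 with iBET, and the costimulator Cd86 at 0.818 and 0.336 TMM CPM with DMSO and 2.21 and 3.52 with iBET. The iBET libraries were above both controls in these 5. Tnf rose by 1.21, and by 0.77 without iBET replicate 1. Nfkb1, the p105 subunit, was at 154 and 201 TMM CPM with DMSO and 119 and 131 with iBET and fell by 0.51, or 0.31 without DMSO replicate 2.

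Immediate early genes, which respond within minutes to growth signals, held 3 rises among 25 tested (12.0%, against 6.38%) and no fall, and 6 rises and no fall with the replicate block. A further rise and a fall passed the blocked test with overlapping libraries. Egr3 was at 0.389 and 0.2397 TMM CPM with DMSO and 2.03 and 6.51 with iBET, the ERK phosphatase gene Dusp6 at 97.97 and 36.3 TMM CPM with DMSO and 262 and 153 with iBET, and Zfp36, which destabilizes cytokine mRNAs, at 35.4 and 24.5 TMM CPM with DMSO and 74.5 and 57.6 with iBET. The change of Dusp6 was 1.62 on the log2 scale, 2.51 without DMSO replicate 1 and 1.08 without DMSO replicate 2. Of these 3 calls, 1 was kept without iBET replicate 1, 0 without iBET replicate 2 and 2 without DMSO replicate 2.

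Of 34 tested cytokine receptor genes (38 listed), 9 rose (26.5%, against 6.38%) and 2 fell (5.88%, against 7.54%), and 14 rose and 4 fell with the replicate block. Csf2rb, the common beta chain through which the interleukin-3 of the medium signals, was at 332 and 249 TMM CPM with DMSO and 695 and 495 with iBET (1.04, SE 0.22, adjusted p = 0.0234, edgeR), and Csf2rb2, the mouse copy specific to interleukin-3, at 47.1 and 38.9 TMM CPM with DMSO and 88.04 and 66.8 with iBET. The 2 genes are near-identical, and reads may be shared. Ifngr2, a chain of the interferon gamma receptor, was at 38.4 and 41.3 TMM CPM with DMSO and 73.5 and 81.8 with iBET, Il6st, the shared chain gp130, at 9.42 and 15.01 TMM CPM with DMSO and 27.05 and 35.5 with iBET, and Il13ra1 at 9.11 and 10.7 TMM CPM with DMSO and 16.7 and 21.01 with iBET. The chemokine receptor Ccr1 was at 47.8 and 49.9 TMM CPM with DMSO and 28.8 and 26.9 with iBET and fell by 0.81. Of these 11 calls, 1 was kept without iBET replicate 1, 1 without iBET replicate 2, 8 without DMSO replicate 1 and 8 without DMSO replicate 2 (largest adjusted p 0.206).

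Among cell cycle genes the called changes were few and small. Of 30 mitosis genes tested, 3 fell (10.0%, against 7.54%) and none rose, and 7 fell and 1 rose with the replicate block. In 15 (50.0%, against 26.9%) both iBET libraries were below both controls. Cdc20, activator of the anaphase-promoting complex, was at 100.1 and 134 TMM CPM with DMSO and 67.4 and 74.7 with iBET (-0.72, SE 0.15, adjusted p = 0.0220, edgeR), the kinase gene Plk1 at 134 and 119.9 TMM CPM with DMSO and 91.001 and 79.4 with iBET and the spindle gene Tpx2 at 263 and 251 TMM CPM with DMSO and 192 and 184 with iBET. Of 35 DNA replication and G1 to S genes, none rose and 1 fell (2.86%, against 7.54%), and 1 and 4 did with the replicate block. The gene that fell was the licensing factor Cdt1, at 132 and 125 TMM CPM with DMSO and 93.4 and 102 with iBET. Among 25 tested CDK inhibitors and p53 targets, Cdkn2c, the inhibitor p18, was at 65.03 and 85.3 TMM CPM with DMSO and 144 and 149 with iBET and rose (0.97, SE 0.26, adjusted p = 0.0459, edgeR), and Cdkn1c, the inhibitor p57, was at 12.8 and 5.03 TMM CPM with DMSO and 1.68 and 0.804 with iBET and fell (-2.86, SE 0.67, adjusted p = 0.0308, edgeR). Each was the 1 call of that list in its direction (4%, against 6.38% and 7.54%), and with the replicate block 1 rose and 2 fell. None of these 6 calls was kept without either iBET library, and those of Cdkn2c and Cdkn1c were lost without DMSO replicate 1 as well (adjusted p 0.0868 and 0.0569, edgeR).

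Of 24 tested genes of the BCL2 family and caspases (26 listed), 3 rose and 3 fell (12.5% each, against 6.38% and 7.54%), and 5 rose and 3 fell with the replicate block. Bcl2l11, the cell death activator BIM, was at 26.6 and 27.1 TMM CPM with DMSO and 57.3 and 61.2 with iBET, with close controls, and rose (1.14, SE 0.14, adjusted p = 0.00436, edgeR), with its call kept throughout. Bid, another activator, was at 103 and 115 TMM CPM with DMSO and 151 and 157 with iBET. The genes that fell are copies of the survival gene A1, namely Bcl2a1a, at 5.02 and 12.4 TMM CPM with DMSO and 0.619 and 0.497 with iBET, Bcl2a1b, at 1.25 and 5.99 TMM CPM with DMSO and 0.133 and 0.268 with iBET, and Bcl2a1d, with 18 reads with DMSO and 0 with iBET, at least 6.28-fold lower against a floor of 3 reads over the group. They are near-identical, so that reads cannot be assigned to 1 copy with certainty. Bcl2a1b had a log2 fold change of -4.11, or -2.59 without DMSO replicate 2, and the call of Bcl2a1a (-3.95) was kept throughout. Without each of the 4 libraries in turn (iBET replicates 1 and 2, then DMSO replicates 1 and 2), 2, 2, 5 and 5 of the 6 calls were kept.

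Histone genes held 3 rises among 37 tested (8.11%, against 6.38%) and no fall, and 5 rises and no fall with the replicate block. The replacement histone gene H3f3b was at 388 and 447 TMM CPM with DMSO and 678 and 751 with iBET (0.78, SE 0.13, adjusted p = 0.0106, edgeR), and the other 2 were Hist1h1c and Hist1h2bc, described above. The median of the list was 0.18, 0.98 without DMSO replicate 1 and -0.08 without DMSO replicate 2, with the opposite sign. None of the 3 calls was kept without iBET replicate 1, and 1 without iBET replicate 2.

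The calls of the glycolysis and amino acid lists were few, and each was a fall. Of 22 tested glycolysis genes (23 listed), 17 (77.3%, against 26.9%) had both iBET libraries below both controls and the median was -0.75 (-0.46 and -0.97 without DMSO replicate 1 and 2), but 2 passed the test (9.09%, against 7.54%), and 11 did with the replicate block. Slc2a3, the glucose transporter GLUT3, was at 150.1 and 36.1 TMM CPM with DMSO and 9.94 and 3.06 with iBET (-3.85, SE 0.73, adjusted p = 0.0158, edgeR), and its log2 fold change was -2.49 without DMSO replicate 1. The enolase gene Eno1, which has processed copies in the genome, was at 8.61 and 6.9995 TMM CPM with DMSO and 3.85 and 3.02 with iBET. Among 26 genes of the amino acid response under ATF4, 2 fell (7.69%, against 7.54%; 4 with the replicate block) and none rose. Slc7a11, the cystine transporter, was at 27.4 and 29.5 TMM CPM with DMSO and 9.68 and 9.41 with iBET (-1.57, SE 0.28, adjusted p = 0.0129, edgeR), and Mthfd1l, of mitochondrial folate metabolism, at 208 and 279 TMM CPM with DMSO and 107 and 108 with iBET. Neither these calls nor those of glycolysis were kept without either iBET library.

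Among called genes, in a list or not, the largest falls against each single DMSO library were led by Clec12a, Prom1 and Mpo. Prom1, the progenitor surface protein CD133, was at 44.7 and 75.5 TMM CPM with DMSO and 1.37 and 0.804 with iBET (-5.797, SE 0.36, adjusted p = 0.000434, edgeR). Thbs1, thrombospondin, was among the falling genes with the highest levels, from 1955 and 907 to 67.2 and 43.7 TMM CPM (-4.69, SE 0.55, adjusted p = 0.00398, edgeR). Vcam1, the adhesion molecule for integrin alpha-4, was at 22.3 and 45.9 TMM CPM with DMSO and 1.105 and 0.574 with iBET, Rnase10 at 10.5 and 12.9 TMM CPM with DMSO and 0.707 and 0.574 with iBET and Ttc21a at 8.18 and 17.9 TMM CPM with DMSO and 0.133 and 0.306 with iBET. Apart from Mpo, each of these genes kept its call throughout. Fads2, a fatty acid desaturase at 22.98 and 71.001 TMM CPM with DMSO and 1.28 and 0.191 with iBET, Ndrg2 at 14.3 and 66.4 TMM CPM with DMSO and 0.398 and 0.191 with iBET and Chdh, choline dehydrogenase at 15.1 and 94.8 TMM CPM with DMSO and 0.442 and 0.727 with iBET, lost the call without either iBET library. Their levels in DMSO replicate 2 were several times those in replicate 1. Alas1, the first enzyme of heme synthesis, was at 594 and 452 TMM CPM with DMSO and 255 and 240.1 with iBET and fell by 1.08.

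By the same ranking, on the smaller of the ratios to the single DMSO libraries with 0.5 CPM added, the rises were led by Nrp1, Nkx6-2 and Itsn1. Nrp1, the semaphorin and VEGF receptor neuropilin, was at 1.25 and 1.29 TMM CPM with DMSO and 23.5 and 13.5 with iBET. Nkx6-2, a homeobox gene of the nervous system, was at 0.545 and 0.144 TMM CPM with DMSO and 12.02 and 5.43 with iBET. Itsn1, a scaffold of endocytosis, was at 30.5 and 25.2 TMM CPM with DMSO and 252 and 185 with iBET (2.97, SE 0.23, adjusted p = 0.00107, edgeR) and kept the call throughout. Slc2a6, a sugar transporter of lysosomes, was at 7.52 and 8.73 TMM CPM with DMSO and 54.8 and 58.5 with iBET, and Rgs10, a brake on G protein signals, at 9.85 and 5.18 TMM CPM with DMSO and 42.8 and 54.3 with iBET, both with calls kept throughout. Wfdc17 was at 20.7 and 5.85 TMM CPM with DMSO and 141 and 128 with iBET and Amot, angiomotin, at 15.2 and 4.46 TMM CPM with DMSO and 63.6 and 60.9 with iBET, and both lost the call without either iBET library. Among abundant RNAs, Ftl1, the ferritin light chain, was at 724 and 571 TMM CPM with DMSO and 1532 and 2319.5 with iBET, the nuclear RNA Malat1 at 493 and 677 TMM CPM with DMSO and 1475 and 1265 with iBET and the splicing regulator Mbnl1 at 907 and 843 TMM CPM with DMSO and 1621 and 1996 with iBET. Each of these abundant genes was above both controls in both iBET libraries and lost its call without at least 1 iBET library.

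**Figure D3:**
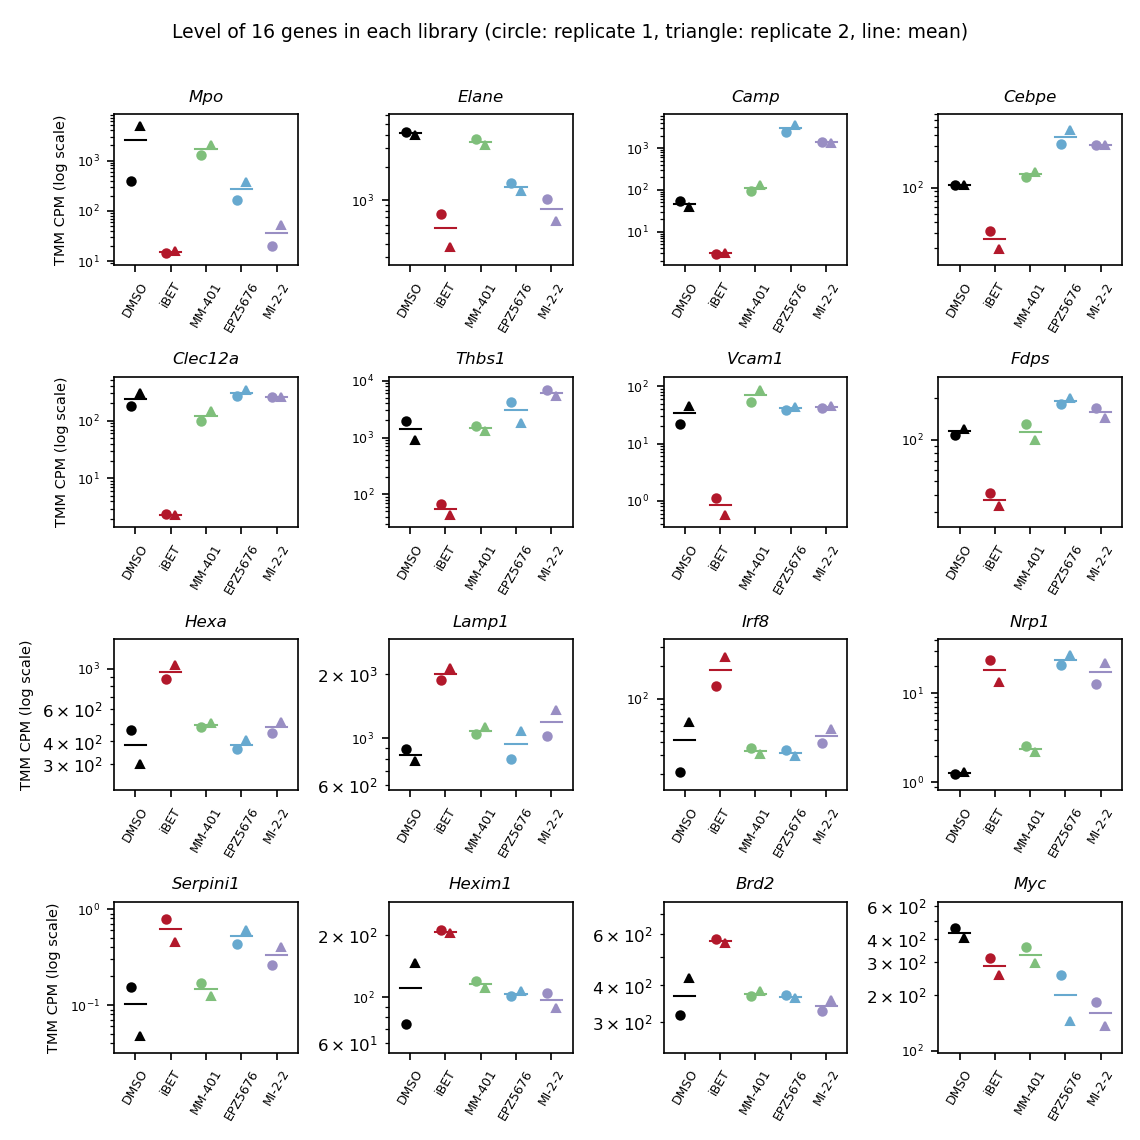
Level of 16 genes (TMM CPM, log scale, y axis) in the 2 libraries of each group (x axis), with a circle for replicate 1, a triangle for replicate 2 and a line at the mean. Clec12a lies at 2.39 and 2.37 with iBET and at 97.1 or more in the other 8 libraries, Lamp1 is highest with iBET, Mpo differs widely between the DMSO libraries, and Camp is lowest with iBET and highest with EPZ5676.

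A comparison without any DMSO library set iBET against the mean of the MM-401, EPZ5676 and MI-2-2 groups. Here 1530 genes were higher with iBET (11.8%) and 1658 lower (12.8%), with both iBET libraries on the same side of the other 6. With total-count scaling 1834 were higher and 1526 lower, so that which direction held more genes depended on the scaling. Of the 828 genes that rose against DMSO 437 were also higher than with the other inhibitors and none was lower. Of the 978 that fell, 585 were also lower and 2 were higher. Both comparisons use the same iBET libraries. Clec12a was at 97.1 to 343 TMM CPM in the other 6 libraries against 2.39 and 2.37 with iBET (log2 difference -6.47, SE 0.34, adjusted p = 7.12e-05, edgeR). Brd2 was at 326 to 383 and Hexim1 at 88.8 to 119.9 in those 6, and both were higher with iBET (0.65, SE 0.12, adjusted p = 0.00540 for Brd2 and 0.99, SE 0.21, adjusted p = 0.0100 for Hexim1, edgeR). Irf8, at 29.7 to 52.3 in the 6, was higher with iBET (2.36, SE 0.34, adjusted p = 0.00214, edgeR).

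Of the secondary and tertiary granule genes, 27 of 29 were lower with iBET than with the other inhibitors (93.1%, against 12.8%) and none was higher. The list summed to 6185 and 2087 TMM CPM with DMSO, 2436 and 1561 with iBET and 7877 to 93663 in the other 6 libraries. These 6 thus lay above both controls too, and the count of 27 does not measure a fall from DMSO. Camp was at 94.8 to 3496 and Olfm4 at 73.3 to 1880.2 TMM CPM in the other 6 libraries, highest with EPZ5676 in both. Cebpe was at 132 to 461. Of the lysosome and autophagy genes, 9 of 40 were higher with iBET (22.5%, against 11.8%) and 1 was lower (2.5%, against 12.8%). The median difference of the list was 0.18 on the log2 scale. The list summed to 13782 and 15816 TMM CPM with iBET and 9418 to 17803 in the other 6 libraries, a range that holds both iBET values. Lamp1 was at 797 to 1354 and Hexa at 364 to 512 in the 6 libraries, below both iBET libraries. Psap, at 656 to 3676, overlapped them. Of the sterol synthesis genes, 11 of 30 were lower with iBET (36.7%, against 12.8%) and none higher, Fdps among them at 99.2 to 201. In the MLL-AF9 program, 10 of 26 were higher (38.5%, against 11.8%) and 3 lower (11.5%, against 12.8%). That list summed to 4313 and 4740.5 TMM CPM with DMSO, 5156 and 5081 with iBET and 2844 to 5013 in the 6 libraries. Myc was at 135 to 361 in the other 6 libraries, around the iBET values, and the difference did not pass the test (0.39, SE 0.22, adjusted p = 0.206, edgeR).

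Markers of other cell types were summed by list. The 12 erythroid markers summed to 438 and 1033 TMM CPM with DMSO and 568 and 701 with iBET, nearly all of it the transferrin receptor Tfrc, which dividing cells also carry, and the globin genes, Slc4a1 and Rhag had no read in the 4 libraries. Among 12 megakaryocyte markers the summed level was 13.01 and 12.99 TMM CPM with DMSO and 15.3 and 13.1 with iBET. The 12 B lymphoid markers summed to 3.62 and 40.6 with DMSO and 0.62 and 0.88 with iBET. Pax5, Ebf1, Rag1 and Ms4a1 had no read, and the high value of DMSO replicate 2 came from Igll1, at 0.273 and 34.4 in the controls. Cd79b, a chain of the B cell receptor, was at 2.69 and 3.36 TMM CPM with DMSO and 0.133 and 0.115 with iBET, with close controls, and fell (-4.56, SE 0.43, adjusted p = 0.00195, edgeR), and its call was kept throughout. The 15 T and NK markers summed to 8.80 and 71.4 with DMSO and 2.65 and 2.53 with iBET, mostly Nkg7, and Cd3e, Cd3g and Cd8a had no read. The 18 stromal and endothelial markers summed to 62.0 and 357 with DMSO and 10.0 and 14.1 with iBET, with Col6a3 at 3.19 and 244 in the controls and Col1a2, Col3a1 and Dcn without a read. The log2 fold change of Col6a3 was -8.22, and -2.97 without DMSO replicate 2. Igll1 had 725 reads with DMSO and 3 with iBET, a ratio of 253 (exact 95% interval 86.3 to 1230.2, counting error only), and Nkg7 1410 and 3, a ratio of 492 (168 to 2389.9). Without DMSO replicate 2 the call of Igll1 was lost and that of Nkg7 was kept, and without either iBET library both were lost. Pecam1, an adhesion molecule that myeloid cells also carry, was at 23.1 and 43.7 TMM CPM with DMSO and 6.85 and 8.801 with iBET. The part of other cells in the results was not tested.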

How the data were processed

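RNA of 10 libraries was sequenced (Illumina TruSeq, total RNA). The values are read counts per gene, made by the authors and deposited without normalization. The submitters' processing notes name TopHat2, mm9, Subread and DESeq. Whether counting used strand, and how reads matching several genes were treated, is not given in the sources used here. Counts were taken as deposited. A single edgeR model (version 4.0.16, R 4.3.3; genes kept by filterByExpr, TMM scaling, quasi-likelihood F test by glmQLFit and glmQLFTest) had a coefficient for each of the 5 groups, and p-values were adjusted over 12971 genes. A gene was called at an adjusted p below 0.05 where both iBET libraries were above, or both below, the pair of DMSO libraries. The standard error is the log2 fold change divided by the square root of F.

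Named genes were the detected members of the 3 lists of BET proteins, response markers and MYC partners, the 15 largest rises and 15 largest falls against each single DMSO library (0.5 CPM added, at least 5 TMM CPM in the higher group), up to 6 called members of each other list, and the 5 highest-level genes called over 2-fold each way. Hoxa9, Meis1, Spi1, Cebpa, Cd34, Elf4, Ets1, Ctsc, Anxa1, Itgav, Mcoln1, Map1lc3b, Sqstm1, Tfe3, Tfeb and Srebf2 were added after their values were seen. Members and lists (25 pathway lists and 5 marker lists) were chosen with earlier results of these data known.

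The main fit did not pair libraries. Only the replicate block took replicate numbers as pairing them. Deviations of same-numbered libraries correlated in each of 10 pairs of groups (Pearson's r 0.278 to 0.666). DMSO replicate 2 differed in its Y-linked reads from all other libraries of either number. Ratios of read totals with 1 to 3 reads in a group are given with exact 95% intervals, and with 0 reads against a floor of 3 reads over the group. Alternatives were total-count scaling, DESeq2 1.42.0 size factors and test, other filters, the replicate block, 4 libraries only, and each of the 4 libraries left out. DESeq2 on 4 libraries was added after the data were seen. The fit was tested on simulated data. Some members of the lists are not reported here by name.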

Additional observations from a re-analysis of the deposited data

How the results depend on the processing

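The count of 1806 genes called against DMSO was 1786 with total-count scaling, 1755 with DESeq2 size factors, 1645 without a filter and 1723 with at least 1 CPM in 2 libraries. It was 2782 with DESeq2's own test and 3047 with the replicate block, and edgeR on 4 libraries alone called 0. DESeq2 on 4 libraries, added after the data were seen, called 1313. With 1 library left out the count lay between 193 and 3585. Leaving out an iBET library gave 273 (replicate 1) and 193 (replicate 2), and leaving out a DMSO library 3585 (replicate 1) and 2880 (replicate 2). The cause was not tested. The count against the other inhibitors was 3188 and lay between 3043 and 3691 under other scalings, filters, DESeq2 and the replicate block, and between 1279 and 1629 with an iBET library left out. Of 134 named genes that were called, edgeR on 4 libraries alone lost the calls of all 134, and DESeq2 on the same 4 lost 24. The replicate block lost 1 call, total-count scaling 7 and no filter 8. Many calls were also lost without an iBET library, as given with the lists. Of 41 named genes that were not called, the block brought 9 to an adjusted p below 0.05 (edgeR). No named gene changed direction with a call. Total-count scaling changed the split against the other inhibitors from 1530 higher and 1658 lower to 1834 and 1526, and moved the median difference from the other inhibitors from 0.04 to 0.12 on the log2 scale, and the differences in the report are on the TMM scale. Depth limits the genes near the filter, whose levels rest on few reads, and was not varied here.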

Other observations

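Adhesion and guidance genes changed in both directions. Of 35 tested (37 listed), 5 rose (14.3%, against 6.38% of all genes tested) and 4 fell (11.4%, against 7.54%), and 7 rose and 6 fell with the replicate block. The median log2 fold change was 0.10, with 0.42 without DMSO replicate 1 and -0.13, of the opposite sign, without DMSO replicate 2. Itgb5, the integrin beta-5 chain, was at 43.7 and 73.97 TMM CPM with DMSO and 138 and 195 with iBET (1.501, SE 0.27, adjusted p = 0.0130, edgeR), and its usual partner Itgav at 79.9 and 76.2 TMM CPM with DMSO and 136 and 111 with iBET. Itgb5 was at 29.3 to 39.9 TMM CPM in the 6 libraries of the other inhibitors, below both iBET libraries (2.29, SE 0.20, adjusted p = 0.000309, edgeR). Plxnd1, a semaphorin receptor, was at 313 and 377 TMM CPM with DMSO and 98.3 and 82.8 with iBET and fell (-1.93, SE 0.22, adjusted p = 0.00393, edgeR). Selp, P-selectin, was at 3.47 and 2.301 TMM CPM with DMSO and 0.707 and 0.191 with iBET, and the semaphorin gene Sema6b at 54.7 and 38.6 TMM CPM with DMSO and 19.4 and 23.2 with iBET. Without iBET replicate 1, iBET replicate 2, DMSO replicate 1 and DMSO replicate 2, 5, 4, 9 and 8 of the 9 calls were kept, with Vcam1, Nrp1 and Plxnd1 kept in each.

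Of 20 genes of mast cells and basophils 8 were tested, of which 3 fell (37.5%, against 7.54%) and none rose. Hdc, which makes histamine, was at 14.1 and 118 TMM CPM with DMSO and 4.77 and 6.43 with iBET and fell by 3.56 on the log2 scale, or 1.33 without DMSO replicate 2. Cyp11a1, the first enzyme of steroid hormone synthesis, was at 96.8 and 187 TMM CPM with DMSO and 19.8 and 7.73 with iBET, and Slc18a2, the vesicle transporter of amines, at 4.67 and 4.17 TMM CPM with DMSO and 2.52 and 2.37 with iBET. The defining protease genes Mcpt1, Mcpt2, Mcpt4, Cma1, Tpsb2 and Tpsab1 and the receptor gene Fcer1a had no read in the 4 libraries. None of these 3 calls was kept without either iBET library.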
